A study of Homo sapiens with 6 samples.

Results

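Molecular chaperones of the cytosol and of mitochondria were examined as a list of 40 named genes. The list holds heat shock proteins and their cochaperones, the subunits of the CCT ring, and prefoldin subunits. All 40 were found by gene symbol among the 60612 genes of each file, and all 40 were among the 12076 genes tested, those whose mean over all libraries reached 1 FPKM. FPKM is the fragment count of a gene divided by its transcript length and by the mapped fragments of the library.

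The libraries came from HCT116, an established human colorectal carcinoma cell line. Cells labelled LV-NC (3 libraries) had been infected with a negative control lentivirus, and cells labelled LV-SNORA28 (3 libraries) with a lentivirus that overexpresses SNORA28, an H/ACA small nucleolar RNA. Both groups shared the cell line and a lentiviral infection, and no uninfected cells were among them. The study's methods name the vector GV235 for the overexpressing virus. They also describe puromycin selection of cells that stably overexpress SNORA28, and whether the sequenced cells were selected is not stated. The comparison asks how SNORA28 overexpression changes gene expression in these cells. Clonality of the infected cells, and whether the libraries of a group came from separate cultures, are not given in the sources used here, so p-values measure only the spread between these libraries.

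Chaperones bind proteins that are not yet folded, or that have lost their fold, and let them go again, many in cycles driven by ATP. In the cytosol, J-domain proteins hand clients to HSP70, HSP70 can pass them on to HSP90 or to the CCT ring, and prefoldin brings new actin and tubulin chains to that ring. Mitochondria hold their own HSP70, HSP60 and HSP90. Many of these genes are transcribed under HSF1, the heat shock factor, which binds repeated GAA units in promoters when unfolded proteins accumulate, and cancer cells often depend on HSP90 and HSF1 for growth.

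SNORA28 itself matched the labels. It was listed at 0 to 0.92 FPKM with LV-NC against 13.7 to 15.2 FPKM with LV-SNORA28. The libraries were poly(A)-selected, and how far these values reflect the mature small nucleolar RNA was not tested. Of 8 markers of colorectal epithelial lines, 5 (EPCAM, CDH1, KRT8, KRT18, KRT19) were at 1 FPKM or more in all 6 libraries, while VIL1, CEACAM5 and LGALS4 were below 1 FPKM. Of 9 markers of blood, endothelium, fibroblasts and liver, 8 stayed below 1 FPKM in all libraries and COL1A1 did not, and their summed level was 3.58 to 4.68 FPKM in LV-NC and 3.42 to 4.42 FPKM in LV-SNORA28. Between 11664 and 12259 genes per library reached 1 FPKM, and mapped depth is unknown. Mitochondrially encoded transcripts took 42.7% to 47.7% of all FPKM with LV-NC and 35.9% to 38.3% in LV-SNORA28. Their part in the chaperone values was not tested, but fits in which the nuclear genes were rescaled to an equal sum are given where they change a result. In bulk libraries, a change in the share of cells that express a gene and a change in RNA per cell cannot be told apart.

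Of the 40 chaperone genes, 10 were higher in LV-SNORA28 at an adjusted p below 0.05 in limma, and 0 were lower. The 10 were HSPA1B, HSPH1 and BAG3 of the HSP70 system, the J-domain genes DNAJB1 and DNAJB4, HSP90AA1 and its cochaperone gene FKBP4, the small heat shock gene HSPB1, and the CCT ring genes TCP1 and CCT6A. Their log2 fold changes on the log2(FPKM + 1) scale ran from 0.32 to 0.97. In mean FPKM this was 1.25-fold for TCP1 and 1.97-fold for HSPA1B. Without adjustment, 23 genes were higher and 1 (PFDN6) was lower at p below 0.05, beside 22% and 6.08% of all genes tested.

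The share of members called higher was 25%, beside 6.81% of all genes tested, and 2.1% of all genes were called lower. The study's own threshold (fold change above 1.5 at an unadjusted p below 0.05) held for 3 members (HSPA1B, HSPB1 and HSP90AA1), and for 3.79% of all genes. The log2 fold change was above 0 for 33 members and below 0 for 7, beside 66.7% of all genes tested above 0, and the median was 0.23 beside 0.09. In 24 members the LV-SNORA28 libraries all lay above the LV-NC libraries, as they did in 27% of all genes. In 2 members, PFDN5 and PFDN6, they all lay below, as in 8.16% of all genes.

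Quantile normalization of the log2 values centred the median of all genes at -0.00 and changed the calls over all genes from 822 higher and 254 lower to 451 higher (3.73%) and 375 lower (3.11%). Of the members, 10 were then higher and 1, PFDN6, was lower. BAG3, DNAJB4 and TCP1 were no longer called, and HSPA8, CCT3 and CCT7 were. The number of members called higher fell to 6 (15%) without LV-NC replicate 1 and 6 (15%) without LV-NC replicate 2, beside 4.07% and 3.11% of all genes. It fell to 4 (10%) without LV-SNORA28 replicate 2 and 3 (7.5%) without LV-SNORA28 replicate 3, beside 1.58% and 1.66% of all genes. HSPA1B, HSPB1 and HSP90AA1 were called in each of the 14 other ways of processing tried, including all 6 in which a library was left out, but HSPA1B was not when its copy HSPA1A was added to it.

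**Figure D1:**
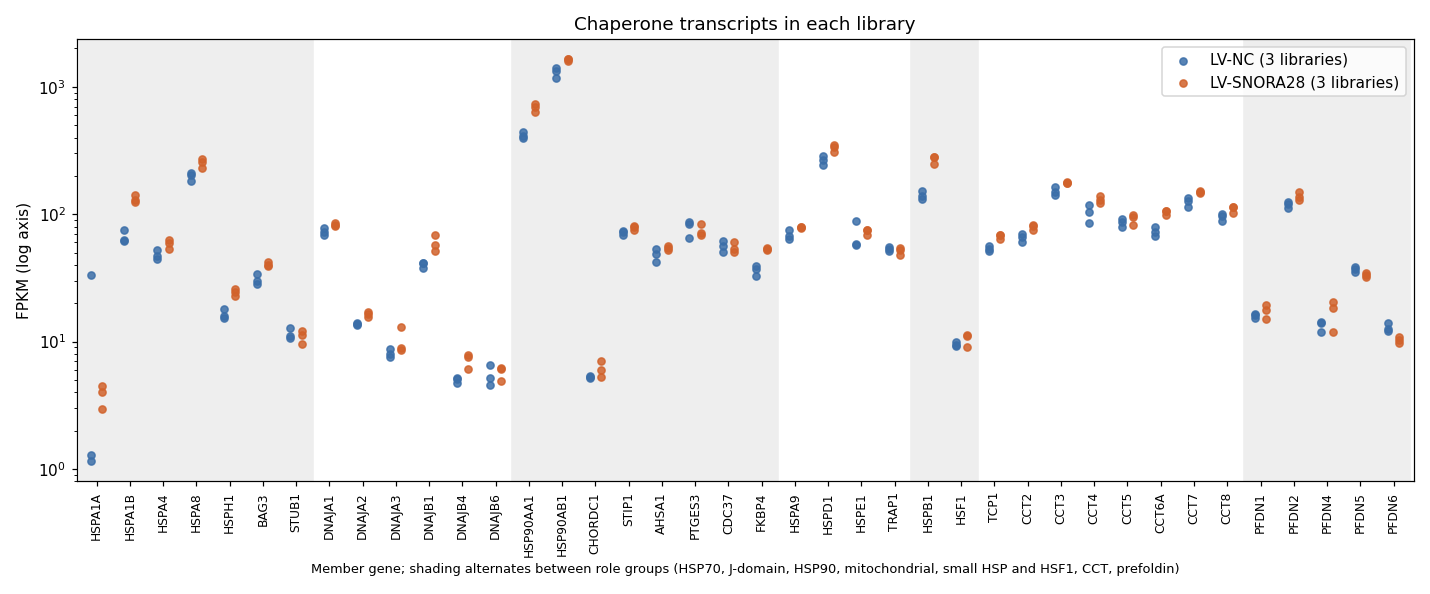
FPKM of each of the 40 chaperone genes in the 3 LV-NC libraries (blue) and the 3 LV-SNORA28 libraries (orange) on a log axis, 1 point per library, ordered by role. HSP90AB1 is the most abundant (1176 to 1654 FPKM), and the orange points of HSPA1B, HSPB1 and HSP90AA1 stand clear of the blue ones.

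Summed over the 40 genes, the level was 4101 ± 220 FPKM (SD, n = 3) with LV-NC against 5283 ± 109 FPKM (SD, n = 3) with LV-SNORA28. This was 2.01% to 2.19% of the FPKM of all nuclear genes in LV-NC and 2.63% to 2.70% in LV-SNORA28. The HSP90 pair contributed most, as HSP90AB1 had a mean of 1465 FPKM over the 6 libraries and HSP90AA1 one of 552 FPKM. DNAJB6 had the lowest mean, 5.59 FPKM.

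**Figure D2:**
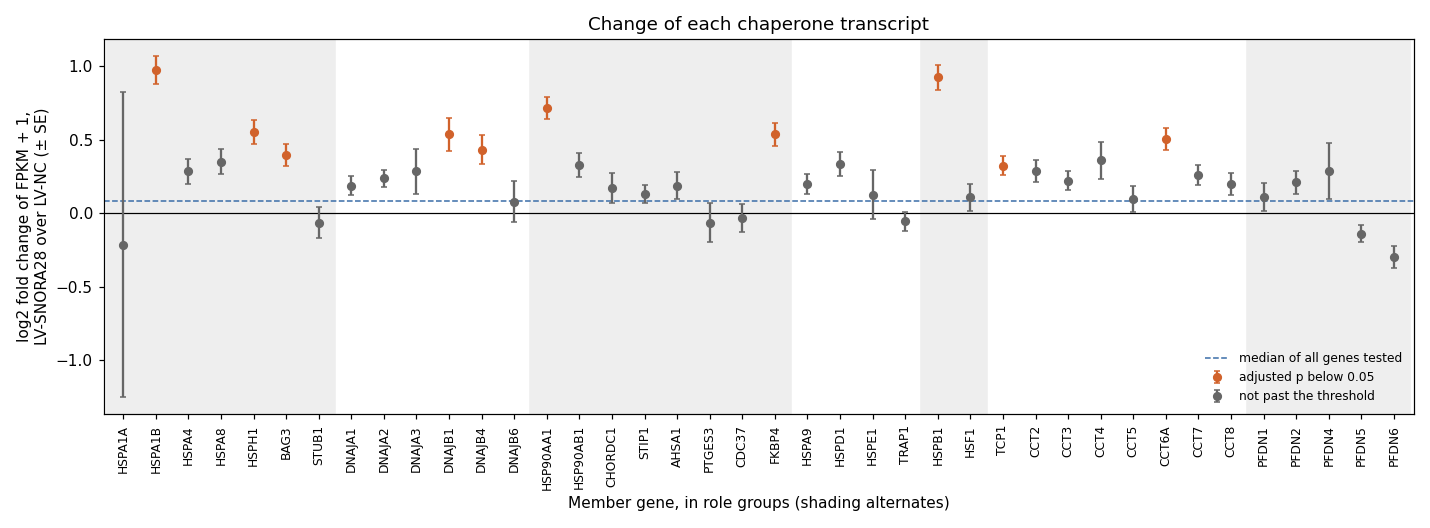
The log2 fold change of FPKM + 1 in LV-SNORA28 over LV-NC for each chaperone gene, with its SE from limma. Orange marks the 10 genes with an adjusted p below 0.05, the dashed line is the median of all genes tested (0.09), and the wide bar of HSPA1A comes from LV-NC replicate 3 (33.6 FPKM).

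The promoters were read for the sequence that HSF1 binds, since several members classically induced by heat were among the genes called higher. RefSeq promoter windows on GRCh38.p14, from 250 bases before to 50 bases after a transcription start, were held for 35 of the 40 members (no entry for FKBP4, CCT6A, STUB1, HSF1 and PFDN2). A pair of heat shock units was searched as TTCNNGAA or GAANNTTC, each its own reverse complement, so that both strands were covered. A run of 3 units was searched as TTCNNGAA followed by NNTTC, or as its reverse complement, GAANNTTC followed by NNGAA, and every run also holds the pair. A run was found in 7 of the 35 members (20%), beside 0.608% of all 27305 genes with a window. A pair was found in 18 of 35 (51.4%), beside 16.2% of all genes.

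Both motifs were found in members that were called and in members that were not. Of the 8 members called higher that had a window, 1 (HSP90AA1) held a run and 6 a pair, and of the 27 others, 6 (HSPA8, HSP90AB1, DNAJA1, DNAJB6, CHORDC1 and HSPD1) held a run and 12 a pair. HSPH1 and BAG3, both called higher, had neither in this window. These counts describe letters in the reference sequence, and no binding was measured.

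The stretches shown next are 100 bases each. Capitals mark the run where the window held one and otherwise the pairs, and further pairs outside a run stay in lower case. They are given for the 4 largest increases among members with a match, and for 3 members that held a run but were not called, namely the constitutive HSP90AB1 and HSPA8 and the HSP90 partner CHORDC1. All are printed 5' to 3' on the strand of the gene. HSP90AA1 (chr14:102087077-102087176, minus strand) has its run 88 to 76 bases before the start, and the pairs of HSPB1 (chr7:76302445-76302544, plus strand) and HSPA1B (chr6:31827587-31827686, plus strand) lie 182 to 175 and 105 to 98 bases before it. In DNAJB1 (chr19:14518398-14518497, minus strand) the nearer of 2 pairs lies 47 to 40 bases before the start.
HSP90AA1: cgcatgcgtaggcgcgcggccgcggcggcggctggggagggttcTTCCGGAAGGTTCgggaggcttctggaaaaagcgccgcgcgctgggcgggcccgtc
HSPB1: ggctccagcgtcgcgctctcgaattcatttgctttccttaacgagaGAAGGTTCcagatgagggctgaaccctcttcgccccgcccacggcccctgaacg
HSPA1B: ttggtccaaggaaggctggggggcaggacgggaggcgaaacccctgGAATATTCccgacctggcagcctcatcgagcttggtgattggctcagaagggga
DNAJB1: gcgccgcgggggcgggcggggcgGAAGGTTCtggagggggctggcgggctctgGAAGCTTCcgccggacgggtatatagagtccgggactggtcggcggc

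The members with a run that were not called are HSP90AB1 (chr6:44247787-44247886, plus strand; run 112 to 100 bases before the start), HSPA8 (chr11:123062137-123062236, minus strand; 55 to 43 bases) and CHORDC1 (chr11:90223050-90223149, minus strand; the nearest of 3 overlapping runs at 50 to 38 bases). HSP90AB1 and HSPA8 each held 2 runs in the promoter window, and only the marked run lies in the stretch shown.
HSP90AB1: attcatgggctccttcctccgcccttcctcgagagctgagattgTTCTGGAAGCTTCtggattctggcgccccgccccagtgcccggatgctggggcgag
HSPA8: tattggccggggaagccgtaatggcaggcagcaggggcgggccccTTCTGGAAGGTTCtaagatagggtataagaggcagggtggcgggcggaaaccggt
CHORDC1: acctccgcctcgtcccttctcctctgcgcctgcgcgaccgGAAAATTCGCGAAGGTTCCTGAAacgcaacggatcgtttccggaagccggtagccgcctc

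In the HSP70 system, 3 of 7 genes were called higher in LV-SNORA28, beside 6.81% of all genes, and 0 were called lower in limma. HSPA1B (ENSG00000204388; GRCh38 chromosome 6, 31827738 to 31830254), a stress-inducible HSP70, was listed at 61.86, 62.87 and 75.22 FPKM with LV-NC against 141.15, 124.02 and 129.67 FPKM with LV-SNORA28. Every LV-SNORA28 library was far above every LV-NC library. In limma the log2 fold change was 0.97 (SE 0.09, adjusted p 0.00454), the largest increase among the 40.

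HSPA1A (ENSG00000204389; chromosome 6, 31815543 to 31817946) lies beside HSPA1B and encodes the same kind of protein. It was listed at 1.28, 1.15 and 33.56 FPKM with LV-NC against 2.97, 4.01 and 4.45 FPKM with LV-SNORA28. LV-NC replicate 3 stood alone, above every other library, while the other LV-NC libraries were the lowest of the 6. Limma gave a log2 fold change of -0.21 (SE 1.04, adjusted p 0.916), and without LV-NC replicate 3 it was 1.11 with an adjusted p of 0.0331.

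The 2 copies cannot be read apart with confidence. Their coding sequences are 1926 bases each and differ at 4 bases (99.8% identity), and 69.6% of the 150-base stretches of the HSPA1A transcript also occur in that of HSPA1B. HSPA1A made up 30.9% of the sum of the 2 genes in LV-NC replicate 3 and 1.80% to 3.32% in the other 5 libraries. Adding the 2 values keeps reads that were assigned to either copy. Whether shared reads were divided, dropped or counted in both is not known. The sum was 63.14, 64.02 and 108.78 FPKM in LV-NC and 144.12, 128.03 and 134.12 FPKM in LV-SNORA28. All LV-SNORA28 libraries were above all LV-NC libraries. The summed log2 fold change was 0.82 (SE 0.21) and its adjusted p of 0.0589 in limma missed the threshold. Without LV-NC replicate 3 it was 1.08 with an adjusted p of 0.00912. Summing was added after the data were seen.

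**Figure D3:**
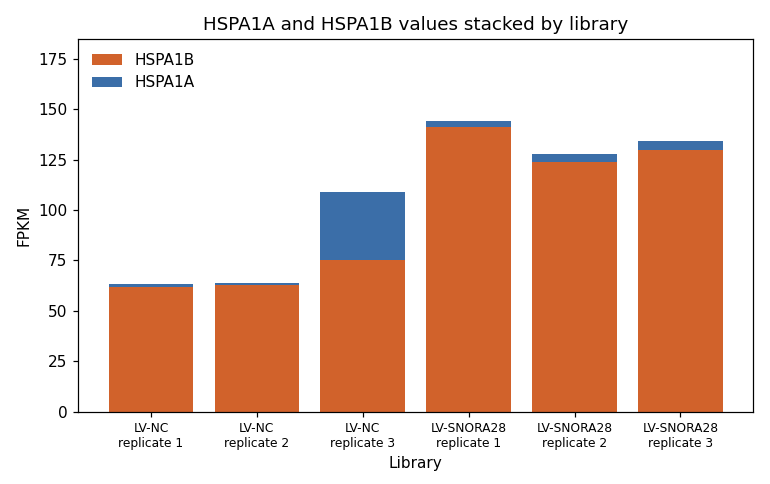
FPKM of HSPA1B (orange) and HSPA1A (blue) stacked in each of the 6 libraries, from 0. The summed height is 63.1, 64.0 and 108.8 FPKM in LV-NC and 144.1, 128.0 and 134.1 FPKM in LV-SNORA28, and the blue part is large only in LV-NC replicate 3.

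HSPH1 (ENSG00000120694; chromosome 13, 31134973 to 31162388), also called HSP105 or HSP110, releases ADP from HSP70 and so restarts its cycle. Its values were 15.24, 15.85 and 18.1 FPKM with LV-NC against 24.67, 22.96 and 25.67 FPKM with LV-SNORA28, with no overlap. This was a log2 fold change of 0.55 (SE 0.08, adjusted p 0.0155 in limma). The call was lost without LV-NC replicate 2 and without LV-SNORA28 replicate 1 or 3, where the adjusted p reached 0.0639.

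BAG3 (ENSG00000151929; chromosome 10, 119651380 to 119677819) links HSP70 to small heat shock proteins and to autophagy. Per library it had 28.23, 33.65 and 29.93 FPKM with LV-NC against 41.96, 39.45 and 40.05 FPKM with LV-SNORA28, and the groups did not overlap. Its log2 fold change in limma was 0.40 (SE 0.08, adjusted p 0.0305). The call was kept in only 1 of the 6 fits with a library left out (without LV-NC replicate 2), and the adjusted p was 0.0546 after quantile normalization.

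HSPA8 (ENSG00000109971; chromosome 11, 123057489 to 123063230), the constitutive HSP70 of the cytosol, was the most abundant of the HSP70 group. Its levels were 203.33, 210.39 and 183.41 FPKM with LV-NC against 271.28, 258.14 and 232.01 FPKM with LV-SNORA28. No overlap was seen, yet the log2 fold change of 0.35 (SE 0.08) had an adjusted p of 0.0528 in limma, and of 0.0468 after quantile normalization. HSPA4, another exchange factor of HSP70, had a log2 fold change of 0.28 with an adjusted p of 0.0888 and no overlap. STUB1, the ubiquitin ligase CHIP that marks HSP70 clients for degradation, ranged from 9.58 to 12.86 FPKM over the 6 libraries with overlapping groups (log2 fold change -0.06, limma adjusted p 0.741).

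Of the 6 J-domain genes, 2 were called higher, beside 6.81% of all genes, and all 6 had log2 fold changes above 0, as did 66.7% of all genes (DNAJB6, at 0.08, had -0.02 after quantile normalization). DNAJB1 (ENSG00000132002; chromosome 19, 14514769 to 14560391) encodes HSP40, the stress-inducible partner of HSP70. It was listed at 37.66, 41.1 and 41.73 FPKM with LV-NC against 51.27, 68.31 and 57.35 FPKM with LV-SNORA28. The LV-NC libraries were tightly placed and all LV-SNORA28 libraries were above them. In limma the log2 fold change was 0.53 (SE 0.11, adjusted p 0.0356), and the call was kept in 1 of 6 fits with a library left out (without LV-SNORA28 replicate 1).

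DNAJB4 (ENSG00000162616; chromosome 1, 77979175 to 78017964), a close relative of DNAJB1, was listed at 5.07, 4.76 and 5.22 FPKM with LV-NC against 6.09, 7.8 and 7.56 FPKM with LV-SNORA28. No library of either group overlapped the other group, and LV-SNORA28 replicate 1 was the nearest to LV-NC. Limma gave a log2 fold change of 0.43 (SE 0.10, adjusted p 0.0464). The adjusted p was 0.0595 with nuclear scaling and 0.0910 after quantile normalization, and the call was kept only without LV-SNORA28 replicate 1 among the fits with a library left out.

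DNAJA1 (ENSG00000086061; chromosome 9, 33025273 to 33039907), a farnesylated partner of HSP70, was the most abundant J-domain transcript. Its values were 68.69, 72.8 and 77.37 FPKM with LV-NC against 81.2, 81.76 and 86.07 FPKM with LV-SNORA28. Although the groups were apart, the log2 fold change of 0.19 (SE 0.06) had an adjusted p of 0.122 in limma. DNAJA2 (0.24) also had no overlap, with an adjusted p of 0.0569. DNAJA3, which acts in mitochondria, was listed at 7.59 to 8.67 FPKM with LV-NC against 8.56, 13.05 and 8.97 FPKM with LV-SNORA28, with LV-SNORA28 replicate 2 standing apart (log2 fold change 0.28, limma adjusted p 0.280).

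HSP90 and its cochaperones gave 2 genes called higher of 8, beside 6.81% of all genes. HSP90AA1 (ENSG00000080824; chromosome 14, 102080742 to 102139699) encodes the stress-inducible HSP90 of the cytosol. Per library it had 410.99, 442.9 and 399.13 FPKM with LV-NC against 635, 728.04 and 693.56 FPKM with LV-SNORA28. The LV-SNORA28 libraries were all well above the LV-NC libraries. This was a log2 fold change of 0.71 (SE 0.08, adjusted p 0.00634 in limma), and the adjusted p was at most 0.0346 with a library left out.

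HSP90AB1 (ENSG00000096384; chromosome 6, 44246166 to 44253888) encodes the constitutive HSP90. Its levels were 1176.24, 1326.5 and 1402.06 FPKM with LV-NC against 1587.43, 1646.3 and 1654.35 FPKM with LV-SNORA28. The groups were apart, but the log2 fold change of 0.33 (SE 0.08) had an adjusted p of 0.0555 in limma, short of the threshold.

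FKBP4 (ENSG00000004478; chromosome 12, 2794970 to 2805423) encodes FKBP52, a peptidyl-prolyl isomerase that joins HSP90 in steroid receptor complexes. It was listed at 32.76, 37.07 and 39.34 FPKM with LV-NC against 51.9, 53.04 and 54.43 FPKM with LV-SNORA28. The LV-SNORA28 libraries lay close together and above all LV-NC libraries. Its log2 fold change in limma was 0.54 (SE 0.08, adjusted p 0.0136), and the adjusted p was 0.0585 without LV-SNORA28 replicate 2 and 0.0593 without LV-SNORA28 replicate 3.

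The other cochaperone genes were not called. CHORDC1 (ENSG00000110172; chromosome 11, 90200429 to 90223077), whose protein binds HSP90, was listed at 5.21, 5.34 and 5.26 FPKM with LV-NC against 5.96, 5.27 and 7.05 FPKM with LV-SNORA28. LV-SNORA28 replicate 2 fell within the LV-NC range, and the log2 fold change of 0.17 (SE 0.10) had an adjusted p of 0.319 in limma. STIP1, the adaptor HOP that holds HSP70 and HSP90 together, did not overlap between groups (log2 fold change 0.13, adjusted p 0.218). AHSA1, an activator of the HSP90 ATPase, had 0.19 (adjusted p 0.244). PTGES3, the cochaperone p23, and CDC37, which brings kinases to HSP90, had log2 fold changes of -0.07 and -0.03 (limma adjusted p 0.792 and 0.856), and their signs changed with a library left out.

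Of the 4 mitochondrial chaperone genes, 0 were called in limma, and 2 (HSPA9 and HSPD1) had an unadjusted p below 0.05, as did 28% of all genes. HSPD1 (ENSG00000144381; chromosome 2, 197486584 to 197516737), the HSP60 of the mitochondrial folding chamber, was the most abundant of the 4. Its values were 243.31, 266.1 and 284.19 FPKM with LV-NC against 310.61, 339 and 350.66 FPKM with LV-SNORA28. No overlap was seen, yet the log2 fold change of 0.33 (SE 0.08) had an adjusted p of 0.0530 in limma, short of the threshold. HSPA9, the mitochondrial HSP70 mortalin, had a log2 fold change of 0.20 (adjusted p 0.124) with no overlap.

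HSPE1, the lid HSP10 of the HSP60 chamber, was listed at 87.96, 57.79 and 58.39 FPKM with LV-NC against 68.1, 75.7 and 74.98 FPKM with LV-SNORA28. LV-NC replicate 1 was the highest of all and the other LV-NC libraries the lowest. Its readthrough transcript with the next gene, HSPE1-MOB4, was listed at 0, 8.8 and 10.57 FPKM with LV-NC but at 0 in each LV-SNORA28 library. HSPE1 was at 68.1 to 87.96 FPKM where the readthrough was at 0, and at 57.79 and 58.39 FPKM where it was listed above 0. HSPE1 had a log2 fold change of 0.12 (limma adjusted p 0.667). Its values are uncertain, since how fragments of the shared exons were divided between the 2 records was not tested. Whether the readthrough accounts for the spread of HSPE1 was not tested either. TRAP1, the HSP90 of mitochondria, had 47.8 to 55.23 FPKM over the 6 libraries (log2 fold change -0.06, limma adjusted p 0.625) and the groups overlapped.

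HSPB1 (ENSG00000106211; chromosome 7, 76302673 to 76304295) encodes HSP27, a small heat shock protein that holds unfolded chains without ATP. Per library it had 131.54, 153.29 and 140.06 FPKM with LV-NC against 281.15, 281.01 and 246.36 FPKM with LV-SNORA28. All LV-SNORA28 libraries were far above all LV-NC libraries. Limma put the log2 fold change at 0.92 (SE 0.08, adjusted p 0.00399), and the adjusted p stayed at or below 0.0237 with a library left out.

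The regulator itself was not called. HSF1 (ENSG00000185122) was listed at 9.96, 9.45 and 9.28 FPKM with LV-NC against 11, 11.25 and 8.99 FPKM with LV-SNORA28. LV-SNORA28 replicate 3 was the lowest of all libraries, and the groups overlapped. The log2 fold change of 0.11 (SE 0.09) had an adjusted p of 0.505 in limma. HSF1 protein is controlled mostly after translation, which these libraries do not measure.

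All 8 CCT ring genes had log2 fold changes above 0, as did 66.7% of all genes, although CCT5 (0.09) was at -0.00 after quantile normalization. The ring, also called TRiC, is built of 8 different subunits in equal number and folds actin and tubulin. In 7 of the 8 genes, all but CCT5, every LV-SNORA28 library was above every LV-NC library, beside 27% of all genes, and 2 of the 8 were called higher, beside 6.81%. CCT6A (ENSG00000146731; chromosome 7, 56051685 to 56063989) was listed at 67.46, 72.7 and 78.69 FPKM with LV-NC against 99.45, 105.5 and 106.11 FPKM with LV-SNORA28. In limma the log2 fold change was 0.50 (SE 0.07, adjusted p 0.0132), and the adjusted p was 0.0600 without LV-SNORA28 replicate 2 and 0.0587 without LV-SNORA28 replicate 3.

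TCP1 (ENSG00000120438; chromosome 6, 159778498 to 159789703), the first named subunit, was listed at 51.02, 56.77 and 53.05 FPKM with LV-NC against 68.89, 63.66 and 69.27 FPKM with LV-SNORA28. The groups did not overlap. Limma gave a log2 fold change of 0.32 (SE 0.07, adjusted p 0.0356), but the call was lost in each of the 6 fits with a library left out (0.0530 to 0.121) and after quantile normalization (0.0927). Its record overlaps that of ACAT2 on the other strand, which was listed at 9.21 to 10.68 FPKM with LV-NC against 12.93 to 14.44 FPKM with LV-SNORA28.

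CCT3 (ENSG00000163468; chromosome 1, 156308968 to 156367873) was the most abundant ring subunit in all 6 libraries and TCP1 the least, with CCT3 at 2.55 to 3.06 times the FPKM of TCP1. CCT3 was listed at 142.44, 150.72 and 162.13 FPKM with LV-NC against 177.82, 175.89 and 176.42 FPKM with LV-SNORA28. Although the groups were apart, the log2 fold change of 0.22 (SE 0.06) had an adjusted p of 0.0814 in limma. CCT2 (0.29), CCT4 (0.36), CCT7 (0.26) and CCT8 (0.20) had adjusted p-values from 0.0579 to 0.141. The sum of the 8 ring genes was 752 ± 54.8 FPKM (SD, n = 3) with LV-NC against 909 ± 17.2 FPKM (SD, n = 3) with LV-SNORA28.

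Prefoldin held both members whose LV-SNORA28 libraries all lay below the LV-NC libraries, 2 of the 40, beside 8.16% of all genes. Of its 5 genes, 0 were called in limma in either direction, and 2 (PFDN2 and PFDN6) had an unadjusted p below 0.05, beside 28% of all genes. PFDN6 (ENSG00000204220; chromosome 6, 33289302 to 33298401) was listed at 12.07, 14 and 12.64 FPKM with LV-NC against 10.78, 10.31 and 9.78 FPKM with LV-SNORA28. All LV-SNORA28 libraries were below all LV-NC libraries. This was a log2 fold change of -0.30 (SE 0.08, adjusted p 0.0593 in limma), with an adjusted p of 0.0433 after quantile normalization and 0.0474 with nuclear scaling.

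PFDN2 (ENSG00000143256; chromosome 1, 161100556 to 161118055) was the most abundant prefoldin transcript of the 5. Its levels were 111.26, 125.79 and 120.23 FPKM with LV-NC against 136.92, 148.16 and 128.68 FPKM with LV-SNORA28. The groups were apart, but the log2 fold change of 0.21 (SE 0.08) had an adjusted p of 0.137 in limma. PFDN2 thus stood at 8.98 to 9.51 times the FPKM of PFDN6 in LV-NC and at 12.7 to 14.4 times in LV-SNORA28, a contrast seen in the values and not tested. PFDN5 was lower without overlap (log2 fold change -0.14, adjusted p 0.179). PFDN1 (0.11) and PFDN4 (0.29) overlapped, with adjusted p-values of 0.488 and 0.374 in limma. VBP1, the remaining prefoldin subunit, is not among the 40 and was named after its values were seen. It had 22.59, 24.98 and 25.01 FPKM with LV-NC against 28.58, 32.29 and 33.04 FPKM with LV-SNORA28 (log2 fold change 0.36, SE 0.08, limma adjusted p 0.0418, but 0.0674 to 0.134 with a library left out).

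Ratios of FPKM within a library, which no scaling of that library can change, were compared for 6 pairs of related members. With 3 libraries in each group the exact two-sided permutation test cannot go below p = 0.1, and no adjusted p went below 0.3. The ratio of inducible HSP90AA1 to constitutive HSP90AB1 was 0.349, 0.334 and 0.285 in LV-NC and 0.400, 0.442 and 0.419 in LV-SNORA28. The ratio of HSPH1 to HSPA4, related exchange factors of HSP70, was 0.342, 0.338 and 0.347 in LV-NC and 0.459, 0.386 and 0.412 in LV-SNORA28. In these 2 pairs every LV-SNORA28 library was above every LV-NC library, with an exact permutation p of 0.1 each, the smallest the design allows.

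The other 4 pairs overlapped. CCT6A to TCP1 had a mean ratio of 1.36 ± 0.107 (SD, n = 3) with LV-NC against 1.54 ± 0.107 (SD, n = 3) with LV-SNORA28, and HSPA8 to HSPA9, the HSP70 of the cytosol to that of mitochondria, had 2.90 ± 0.230 and 3.21 ± 0.212, both with an exact permutation p of 0.2. DNAJA1 to DNAJA2 had 5.31 ± 0.252 and 5.08 ± 0.136 (exact permutation p 0.3). HSPD1 to HSPE1 was 2.77 in LV-NC replicate 1 and 4.48 to 4.87 in the other 5 libraries (exact permutation p 0.9). The readthrough was at 0 in LV-NC replicate 1, but also in each LV-SNORA28 library, where the ratio was 4.48 to 4.68.

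**Figure D4:**
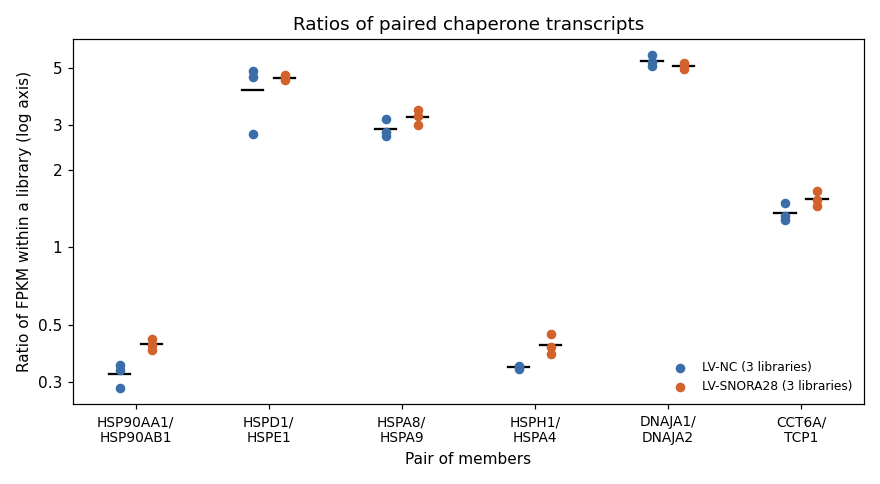
FPKM ratio of 6 pairs of chaperone genes within each library on a log axis, with LV-NC in blue, LV-SNORA28 in orange (1 point per library) and the group mean as a line. The groups are apart for HSP90AA1 to HSP90AB1 and for HSPH1 to HSPA4, and the low blue point of HSPD1 to HSPE1 is LV-NC replicate 1 (2.77).

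Further genes of chaperones and their partners, mostly of the cytosol and mitochondria, were read from a list outside the 40. It also held J-domain genes of the endoplasmic reticulum membrane (DNAJB12 and DNAJB14 among them) and NAA15, which is not a chaperone gene. Of the 89 genes listed, 75 were tested. Of these, 11 (14.7%) were called higher, beside 6.81% of all genes, and 0 were called lower in limma. At an unadjusted p below 0.05, 0 were lower too, beside 6.08% of all genes. After quantile normalization 14 were higher and 4 lower at that unadjusted threshold. Their median log2 fold change was 0.14, beside 0.09 for all genes. The number called higher was 7 (9.33%) after quantile normalization, beside 3.73% of all genes. It was 2 (2.67%) without LV-SNORA28 replicate 2 and 2 (2.67%) without LV-SNORA28 replicate 3, near the 1.58% and 1.66% of all genes. It was 6 or 7 (8% to 9.33%) without any other library, beside 2.70% to 4.07% of all genes.

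NAA15, the ribosome-anchoring subunit of an N-terminal acetyltransferase, and FKBP5, the HSP90 cochaperone FKBP51, had the largest increases on that list. NAA15 was listed at 3.95, 3.88 and 4.3 FPKM with LV-NC against 8.46, 9.36 and 9.72 FPKM with LV-SNORA28 (log2 fold change 1.01, SE 0.08, limma adjusted p 0.00271). FKBP5 was listed at 4.61, 4.72 and 4.95 FPKM with LV-NC against 9.79, 10.2 and 11.26 FPKM with LV-SNORA28 (log2 fold change 0.99, SE 0.07, limma adjusted p 0.00271). In both, the LV-SNORA28 libraries were far above the LV-NC libraries. HSPB8, a small heat shock protein that works with BAG3, had a log2 fold change of 0.53, the J-domain gene DNAJA4 had 0.53, DNAJC6, which uncoats clathrin vesicles with HSP70, had 0.50, and HSCB, which serves iron-sulfur cluster assembly, had 0.47, with limma adjusted p-values from 0.0133 to 0.0174.

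A list of 27 genes classically induced through HSF1 shares 20 genes with the 40. Of the 25 that were tested, 10 were called higher and 0 lower in limma, beside 6.81% and 2.1% of all genes. At an unadjusted p below 0.05, 0 were lower, beside 6.08% of all genes. Their median log2 fold change was 0.33, beside 0.09 for all genes. The 10 were 9 of the 20 shared genes (CCT6A was not on this list) and HSPA4L, 1 of the 5 tested genes outside the 40. The log2 fold change of HSPA4L was 0.43 (adjusted p 0.0288 in limma). Its limma adjusted p was 0.0540 after quantile normalization and up to 0.103 with a library left out. The number called was 7 (28%) after quantile normalization, beside 3.73% of all genes. It fell to 3 (12%) without LV-SNORA28 replicate 3, beside 1.66% of all genes. It was 4 without LV-SNORA28 replicate 2 and 6 without LV-SNORA28 replicate 1, beside 1.58% and 2.75% of all genes. It was 5 without LV-NC replicate 1 and 6 without LV-NC replicate 2, beside 4.07% and 3.11% of all genes.

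Chaperones of the endoplasmic reticulum, which fold secreted and membrane proteins and answer to another stress pathway, were set beside these as the nearest other compartment. Of 18 genes tested, 10 were called lower, beside 2.1% of all genes, and 0 higher in limma (0 higher at an unadjusted p below 0.05, beside 22% of all genes). Their median log2 fold change was -0.43. The 6 largest decreases were those of HYOU1, the large HSP70 relative of that compartment (-0.75), SDF2L1 (-0.69), CRELD2 (-0.66), PDIA4, a disulfide isomerase (-0.65), MANF (-0.56) and the J-domain gene DNAJB11 (-0.54), with limma adjusted p-values from 0.00358 to 0.0192. Quantile normalization also gave 10 lower, beside 3.11% of all genes, and leaving out a library gave 7 to 10, beside 0.729% to 1.13%. The difference between this list and the 40 was not tested as such.

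**Figure D5:**
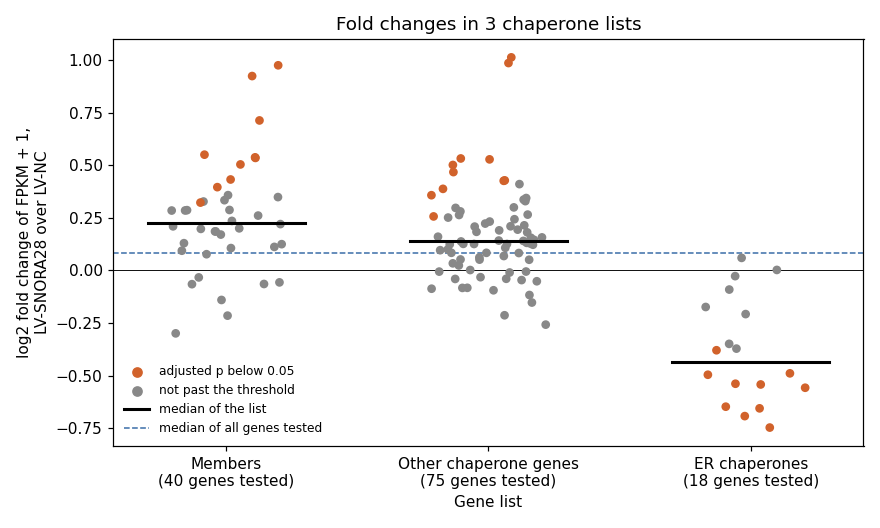
The log2 fold change of FPKM + 1 in LV-SNORA28 over LV-NC for the 40 chaperone genes, 75 other chaperone genes and 18 chaperones of the endoplasmic reticulum (ER), 1 point per gene, with orange for an adjusted p below 0.05. The medians (black lines) are 0.23, 0.14 and -0.43, and the dashed line is that of all genes tested (0.09).

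Processed copies of the 40 genes were examined, since they can take or give reads. Of 121 such pseudogenes, 13 passed the filter and 1 (7.69%, beside 6.81% of all genes) was called higher, HSP90AA2P, a copy of HSP90AA1. It was listed at 8.35, 8.34 and 8.38 FPKM with LV-NC against 12.12, 13.09 and 13.75 FPKM with LV-SNORA28 (log2 fold change 0.58, SE 0.07, limma adjusted p 0.00759). Its level rose with that of HSP90AA1 and was small beside it, and its reads cannot be told apart from those of the parent gene here. HSP90AB3P and HSP90AB2P, copies of HSP90AB1, stood at log2 fold changes of 0.01 (adjusted p 0.965) and -0.63 (adjusted p 0.0641) in limma. After quantile normalization HSP90AB2P was called lower (adjusted p 0.0453).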

How the data were processed

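Poly(A)-selected RNA of 6 HCT116 libraries (3 LV-NC, 3 LV-SNORA28, grouped by sample title) was sequenced as paired ends after dUTP strand marking, per the labels. The authors deposited FPKM values per Ensembl gene, in 1 table per library with no other value column. The submitters' processing notes name hg38, cutadapt 1.9, HISAT2 2.2.1, StringTie 2.1.6, DESeq2 and edgeR, with no role or order. Annotation release, strand setting and mapped totals are not given in the sources used here. Mapped depth could not be recovered from the low values, so no counting interval was given, and the precision is that of the spread between libraries. FPKM is relative to all mapped fragments, so a change in abundant transcripts shifts every other gene.

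Symbols came from GENCODE release 44 (60401 of 60612 identifiers matched). Values were analysed as log2(FPKM + 1) with limma 3.58.1 in R 4.3.3 (lmFit, eBayes with trend) for 12076 genes (mean over all libraries of at least 1 FPKM). P-values were two-sided and adjusted over all these genes by the Benjamini-Hochberg method, and the fit was tested on simulated data. Fold changes on this scale understate the change of low genes. Ratios were compared by exact permutation tests in Python 3.11.15.

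Every member called, HSPA1A, HSPA1B, HSF1, BAG3, CHORDC1, and the most abundant and most changed member of each role were named with all values, and at most 6 called genes of each other list. PFDN6, HSPA4L and the copies of HSP90 genes are named for small counts, some after their values were seen. The members and lists were chosen with earlier results of these data known. Alternatives were quantile normalization, scaling to the nuclear FPKM sum, a pseudocount of 0.1, no filter, a filter at 5 FPKM, no trend, a replicate block, removal of a GC trend, and each library left out in turn. Libraries all differed from each other in at least 26342 genes. Strand overlap may affect TCP1, CCT8, HSPD1, HSPE1, DNAJB1, HSP90AA1, AHSA1, STUB1, HSF1, CDC37, PFDN1 and PFDN6, whose records overlap expressed genes on the other strand.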

Additional observations from a re-analysis of the deposited data

How the results depend on the processing

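Over the 40 members and 14 other ways of processing, 495 of the log2 fold changes kept their direction and their side of the threshold, 42 fell short of it, 12 came to pass it and 11 changed sign. The 10 members called higher became 6 with no filter, where 32761 genes were tested, and 15 with a mean of at least 5 FPKM, where fewer genes were tested. They became 3 to 7 with a library left out, with fewer samples in each and 1.58% to 4.07% of all genes called higher. The 0 called lower became 1 (PFDN6) after quantile normalization, with nuclear scaling and with a mean of at least 5 FPKM, and 1 after quantile normalization with HSPA1A and HSPA1B summed, an alternative chosen after the data were seen. The 3 members at the threshold of the study were 3 to 6 with a library left out. The 11 other chaperone genes called higher became 7 after quantile normalization, 5 with no filter, 6 with the replicate block and 2 to 7 with a library left out, and the 10 genes of the HSF1 list became 3 to 8 (an alternative chosen after the data were seen, as was that of the ER list). Apart from HSPA1A, the members that changed sign were not called under any alternative that changed it: CCT5 -0.00258 and DNAJB6 -0.0206 after quantile normalization, and STUB1 0.0122 and CDC37 0.0220 with the GC trend removed. With a library left out, HSPA1A ranged from -0.90 to 1.11 (called only without LV-NC replicate 3), STUB1 from -0.13 to 0.0222, DNAJB6 from -0.0238 to 0.20, PTGES3 from -0.20 to 0.0172, CDC37 from -0.10 to 0.0343, and the log2 ratio of HSPD1 to HSPE1 from -0.0505 (without LV-NC replicate 1) to 0.36. The cause was not tested. Replicate numbers did not pair the libraries (correlations of -0.04, 0.09 and 0.00983 across genes). With the replicate block 8 members were called higher, with HSPD1 gained and BAG3, DNAJB4 and TCP1 lost. The median of the members moved by less than the spread between libraries in all 16 alternatives run. Count models (edgeR, DESeq2) need counts and were not run. Depth is unknown, so the precision of low members, such as HSPA1A, DNAJB4, DNAJB6 and CHORDC1, is known only from the spread between libraries.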
